A study of Mus musculus with 22 samples.

Results

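Gene deserts, the long stretches of chromosome that hold no protein-coding gene, were followed in mouse dermal fibroblasts with and without Lap2alpha. A desert was any bin of 1 Mb on an autosome (GRCm38, bins laid from the chromosome start) in which no RefSeq protein-coding gene had its midpoint. Bins without any listed interval were left out, 56 of 2470 autosomal bins and all of them within the first 3 Mb of a chromosome. This gave 271 deserts of 2414 bins, 269 Mb or 11.19% of the analysed length, and the other 2143 bins are called gene-bearing. Deserts lay on all 19 autosomes, from 3 on chromosome 19 to 28 on chromosome 1.

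The bin rule looks at midpoints, so a desert need not be empty. In 61 deserts the body of a protein-coding gene reached in from outside, and 210 held no part of one. They also held 455 lncRNA genes and 617 pseudogenes of the RefSeq table. In 5 deserts, on chromosomes 6, 12 and 14, lay 344 V segments of antigen receptor genes and their pseudogenes, which RefSeq does not class as protein-coding. The deserts formed 186 runs of neighbouring bins, 123 of a single bin, 47 of 2, 10 of 3 and 6 of 4.

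Gene-poor chromatin of mammalian nuclei is largely late replicating and rich in lamina-associated domains, stretches of inactive chromatin that touch the nuclear lamina beneath the envelope. A-type lamins (lamin A/C) are found in this lamina and also in the nuclear interior, where Lap2alpha, a soluble isoform of the LAP2 family, binds them and keeps them mobile. BRG1 and CHD4 are the ATPases of the SWI/SNF and NuRD chromatin remodellers and act mainly at active promoters and enhancers. Some deserts are known to hold distant enhancers of developmental genes at their edges.

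The cells were wildtype (WT) or Lap2alpha knockout (KO) mouse dermal fibroblasts. The labels do not name the knockout allele, the mouse strain or the number of animals or clones. Lamin A/C was precipitated with antibodies 3A6 and E1, and BRG1 and CHD4 with 1 antibody each, in both genotypes. Lap2alpha was precipitated with antibody 1H11 and is used here in WT only. Chromatin crosslinked with DSG and formaldehyde was sonicated for 16 or 20 cycles, with a single library for every such combination. The 18 region lists form 8 pairs of a WT and a KO list that match in antibody and cycles: 4 for lamin A/C, 2 for BRG1 and 2 for CHD4. There were no replicates. The pairs differ in antibody or sonication, and the labels do not say whether they also differ in animals, clones or cell preparations. No test was therefore run, and each SD is the spread over libraries of different antibodies or sonication lengths.

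Every value is the percent of a length covered by the listed regions of a library, after overlapping intervals were merged. The lists held 7012 (KO CHD4, 20 cycles) to 219433 (KO lamin A/C, E1, 20 cycles) autosomal regions, and read depth is unknown from them. The lamin A/C regions covered 20.4, 62.5, 9.62 and 46.0 Mb of the autosomes in WT (3A6 at 16 and 20 cycles, then E1 at 16 and 20), and 42.4, 57.1, 26.6 and 76.8 Mb in KO. BRG1 regions lay within 1 kb of an end of 10 to 12 of 12 fibroblast marker genes per library, and of 0 to 2 of 6 keratinocyte, 1 to 3 of 6 endothelial, 0 to 2 of 6 leukocyte and 2 to 3 of 6 melanocyte genes. The KO lamin A/C library of 3A6 at 16 cycles stood apart: over the 271 deserts its coverage had a Spearman correlation of 0.0815 to 0.463 with the other 3 KO lamin libraries, which had 0.844 to 0.942 among themselves. Means and counts over the lamin pairs are therefore also given over the 3 other pairs, while single deserts and chromosomes are given library by library or as means of all 4 libraries.

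Promoters inside deserts show what sequence this chromatin offers. RefSeq promoter windows on GRCm38.p6, which run from 250 bases before to 50 after a gene's start, fell into deserts for 357 genes in 419 windows. Of these windows, 10 overlapped a BRG1 region in all 4 BRG1 libraries, 6 of lncRNA genes and 4 of protein-coding genes whose midpoint lies outside the desert. Those 4 are shown with the window of Gm35529, a lncRNA gene within the desert that lamin A/C covered most in WT. Pard3b encodes a cell polarity protein (chr1:61638574-61638873, plus strand), Celf2 an RNA-binding splicing regulator (chr2:7081253-7081552, minus strand), Nbea the vesicle trafficking protein neurobeachin (chr3:56183652-56183951, minus strand) and Slit2 a secreted ligand of Robo receptors (chr5:47982905-47983204, plus strand). The window of Gm35529 is chr2:171713817-171714116 on the minus strand. Each sequence is from RefSeq and reads 5′ to 3′ along the gene, and capitals mark CG dinucleotides:
Pard3b: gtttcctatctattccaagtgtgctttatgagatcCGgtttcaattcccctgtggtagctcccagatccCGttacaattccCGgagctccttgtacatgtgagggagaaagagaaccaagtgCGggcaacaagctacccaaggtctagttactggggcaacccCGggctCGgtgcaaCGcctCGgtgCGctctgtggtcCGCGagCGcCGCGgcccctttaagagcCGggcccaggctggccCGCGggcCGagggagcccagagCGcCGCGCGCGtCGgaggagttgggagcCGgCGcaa
Celf2: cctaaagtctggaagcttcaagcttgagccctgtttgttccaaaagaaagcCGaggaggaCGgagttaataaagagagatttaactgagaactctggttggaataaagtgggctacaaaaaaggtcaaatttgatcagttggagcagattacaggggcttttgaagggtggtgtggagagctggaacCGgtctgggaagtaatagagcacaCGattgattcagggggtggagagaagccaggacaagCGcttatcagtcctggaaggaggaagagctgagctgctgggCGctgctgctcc
Nbea: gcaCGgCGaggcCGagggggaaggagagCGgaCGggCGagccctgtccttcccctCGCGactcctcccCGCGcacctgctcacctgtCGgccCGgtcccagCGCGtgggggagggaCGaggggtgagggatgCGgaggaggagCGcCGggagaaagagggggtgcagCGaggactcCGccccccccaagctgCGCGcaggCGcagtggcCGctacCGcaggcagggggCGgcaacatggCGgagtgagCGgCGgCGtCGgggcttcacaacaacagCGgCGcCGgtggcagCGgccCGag
Slit2: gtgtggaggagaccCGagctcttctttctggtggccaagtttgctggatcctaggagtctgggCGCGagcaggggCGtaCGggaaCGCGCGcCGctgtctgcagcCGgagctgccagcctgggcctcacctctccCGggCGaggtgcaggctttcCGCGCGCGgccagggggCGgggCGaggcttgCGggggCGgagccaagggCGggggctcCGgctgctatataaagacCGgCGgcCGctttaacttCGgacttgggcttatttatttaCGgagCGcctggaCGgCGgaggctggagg
Gm35529: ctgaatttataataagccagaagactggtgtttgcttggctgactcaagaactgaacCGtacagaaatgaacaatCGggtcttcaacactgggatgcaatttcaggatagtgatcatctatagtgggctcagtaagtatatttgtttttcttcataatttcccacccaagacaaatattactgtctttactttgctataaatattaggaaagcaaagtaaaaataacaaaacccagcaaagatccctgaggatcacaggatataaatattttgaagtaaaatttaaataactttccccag

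The BRG1-covered windows differed widely in CG content. Nbea had 36 CG dinucleotides, a number that 6.23% of all 32851 windows reach, Slit2 had 30 and Pard3b 26, while Celf2 had 6. The window of Gm35529 had 2, the median of the 419 desert windows, where the median of all windows was 7. The letters TGANTCA, where N is any base, are looser than the AP-1 motif, which has C or G at that place. They read the same on both strands and occurred in the windows of Celf2 and Gm35529. The match was TGATTCA in Celf2, which is not the AP-1 motif, and TGACTCA in Gm35529, which is. TGANTCA occurred in 11.7% of desert windows and in 7.81% of all windows, and these are not shares of AP-1 motifs alone. Lamin A/C regions overlapped the Gm35529 window in 3 of 4 WT libraries and no KO library, and no BRG1 region overlapped it. None of the 4 protein-coding windows had a lamin A/C region in WT, and in KO only that of Celf2 had one, in 1 library. No desert window was overlapped by lamin A/C in all 4 libraries of either genotype.

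Lamin A/C covered deserts more than gene-bearing bins in all 8 lamin libraries. In WT, deserts were covered at 1.69% (16 cycles) and 4.63% (20 cycles) with 3A6, and at 0.878% and 3.38% with E1. Gene-bearing bins of the same libraries stood at 0.742%, 2.35%, 0.3396% and 1.73%. The ratio of both was thus 1.96 to 2.59 in WT, with a mean of 2.20 ± 0.30 (SD, n = 4 libraries).

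**Figure D1:**
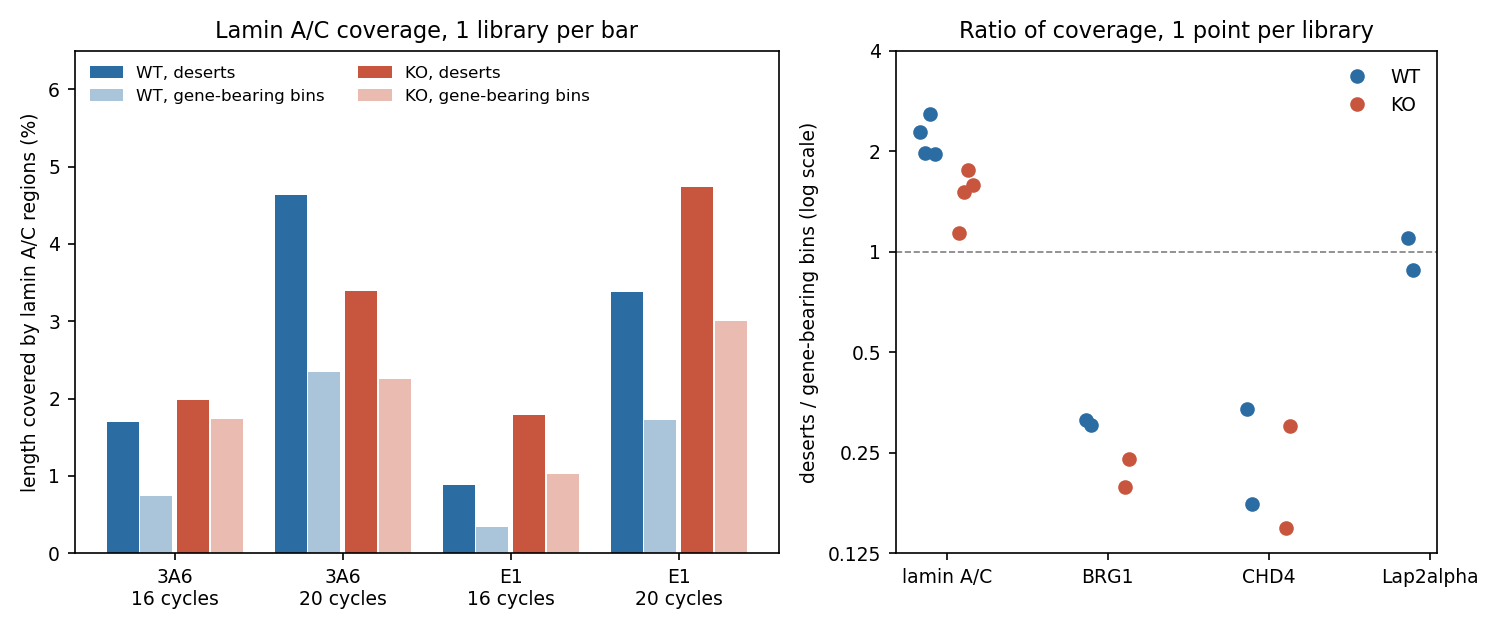
Left, percent of desert and gene-bearing length covered by lamin A/C regions, 1 library per bar, by antibody and sonication cycles. Right, the ratio of desert to gene-bearing coverage in each of the 18 libraries on a log scale, where the dashed line marks equal coverage: WT lamin A/C libraries sit at 1.96 to 2.59 and KO libraries at 1.14 to 1.75, BRG1 and CHD4 at 0.338 or less and Lap2alpha near 1.

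Without Lap2alpha the deserts were less set apart from the gene-bearing bins. In KO the deserts were covered at 1.98% and 3.40% with 3A6 and at 1.79% and 4.74% with E1, at 16 and 20 cycles. Gene-bearing bins were at 1.74% and 2.25% with 3A6 and at 1.02% and 3.00% with E1. The ratio was 1.14, 1.51, 1.75 and 1.58, a mean of 1.496 ± 0.26 (SD, n = 4 libraries), and the highest KO ratio lay under the lowest WT ratio. Over the 3 other pairs the means were 2.17 ± 0.36 in WT and 1.61 ± 0.12 in KO. On the log2 scale the KO ratio was lower by -1.003, -0.38, -0.56 and -0.31 in the 4 pairs, a mean of -0.57 ± 0.31 or 1.48-fold, and leaving out 3A6 at 16 cycles gave a mean of -0.42. Taken as the median over bins in place of the covered length, the mean was -1.74.

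The level in deserts themselves did not differ one way. KO minus WT with 3A6 was 0.286 percentage points (16 cycles) and -1.23 (20 cycles), and with E1 it was 0.911 and 1.35. The mean, 0.33 ± 1.13 points, was smaller than its SD over the pairs. It was 0.344 without the first of these pairs, 0.850 without the second, 0.135 without the third and -0.01 without the fourth. Of all autosomal lamin A/C coverage, deserts held 19.8% to 24.6% in WT and 12.5% to 18.1% in KO, with no overlap between the genotypes. Gene-bearing coverage in KO was 2.34-fold, 0.958-fold, 3.01-fold and 1.74-fold that of WT, and desert coverage 1.17-fold, 0.734-fold, 2.04-fold and 1.40-fold, in the same order of pairs.

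Deserts were one end of a gradient and not a class apart. WT lamin A/C coverage averaged 2.65% ± 1.68 in deserts, 2.37% ± 1.61 in 490 bins with 1 or 2 genes, 1.45% ± 1.07 in 460 bins with 3 to 5, 0.909% ± 0.671 in 533 bins with 6 to 10 and 0.677% ± 0.486 in 660 bins with 11 or more (SD, n = 4 libraries). In KO the same classes were at 2.98% ± 1.38, 2.80% ± 1.31, 2.32% ± 1.04, 1.76% ± 0.698 and 1.39% ± 0.552. The step from deserts to bins with 1 or 2 genes was small in both genotypes, and the KO mean was further above WT in the classes with 3 or more genes. Over the 3 other pairs the deserts were at 2.96% ± 1.91 in WT and 3.31% ± 1.48 in KO, and bins with 11 or more genes at 0.775% ± 0.544 and 1.33% ± 0.660. Gene-bearing bins that border a desert were at 1.88% ± 1.26 in WT and 2.45% ± 1.06 in KO.

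**Figure D2:**
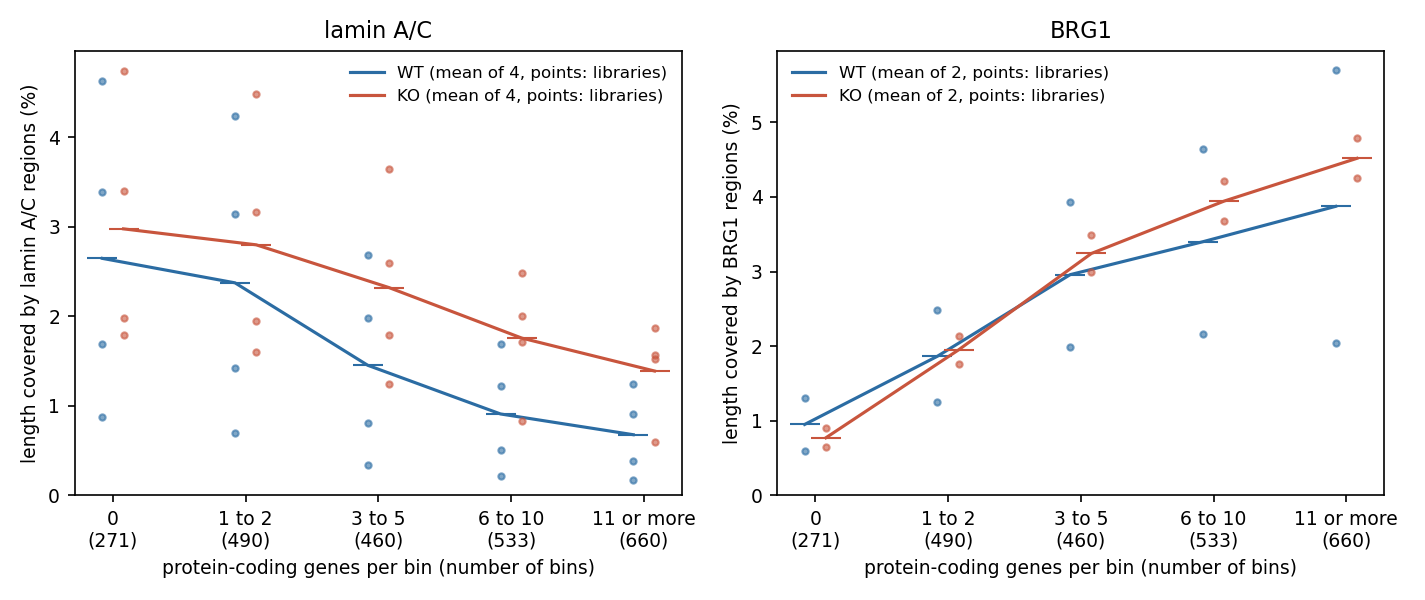
Percent of length covered by lamin A/C (left) and BRG1 (right) regions in bins of 1 Mb, by the number of protein-coding genes per bin, with each library as a point and the genotype mean as a line. Deserts are the class with 0 genes: lamin A/C is highest there, at a mean of 2.65% in WT and 2.98% in KO, and BRG1 lowest, at 0.950% and 0.772%.

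Relative to their mean, single deserts differed more from each other in WT than in KO. With E1 at 16 cycles the WT quartiles over deserts were 0.0402% and 0.958% around a median of 0.152%, and the KO quartiles 0.619% and 2.35% around 1.303%. With E1 at 20 cycles they were 0.233% and 4.72% around 1.59% in WT, and 1.48% and 6.73% around 3.47% in KO. In percentage points the quartiles of E1 were thus further apart in KO, not in WT. With 3A6 the medians were 0.852% and 1.79% at 16 cycles and close together, 3.07% and 3.09%, at 20 cycles. The 27 deserts with the most coverage in a library held 34.4% to 55.3% of its desert lamin A/C in WT and 19.9% to 30.3% in KO. The coefficient of variation over deserts was 1.36 ± 0.30 in WT and 0.69 ± 0.23 for the KO lists (SD, n = 4 libraries), and no KO library reached the lowest WT value. Over the 3 other pairs it was 1.40 ± 0.35 and 0.77 ± 0.20. Gene-bearing bins moved the same way, from 1.96 ± 0.37 to 0.98 ± 0.33, so this was not a property of deserts alone. Deserts without a single lamin A/C region numbered 10, 14, 50 and 38 in the WT libraries and 1, 2, 2 and 7 in the KO libraries. The KO list was the longer in every pair: 181126, 214293, 99864 and 219433 autosomal regions against 74573, 170792, 35684 and 134464 in WT. Gene-bearing bins without a region were not counted, so these numbers are not read as a trait of deserts.

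**Figure D3:**
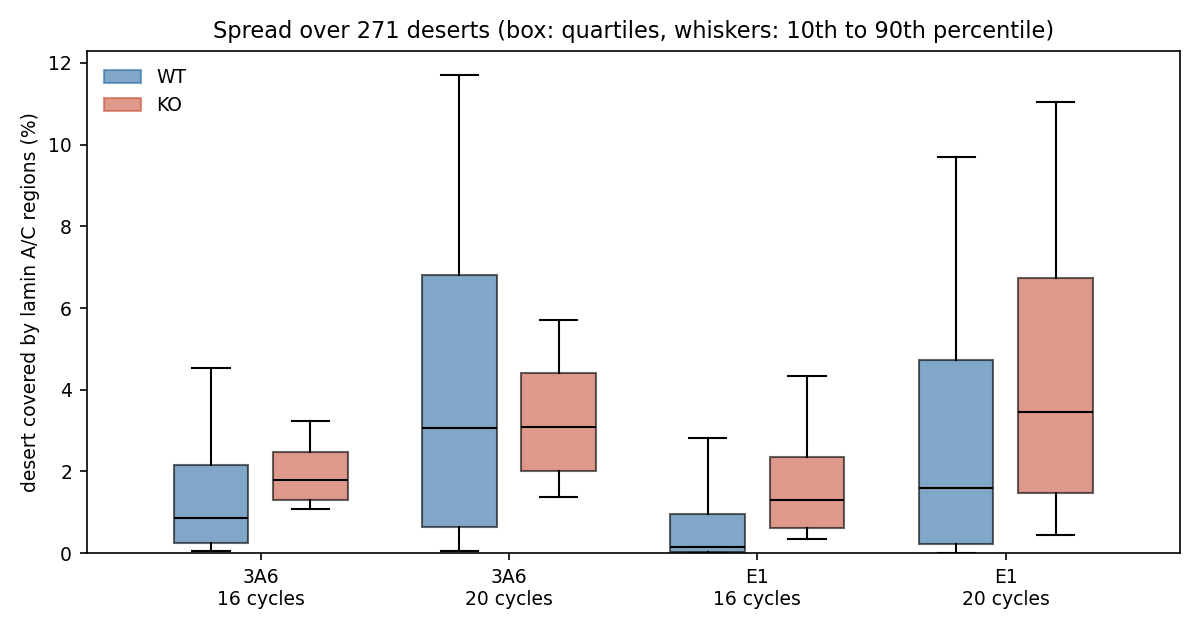
Percent of each desert covered by lamin A/C regions, over 271 deserts, in the 8 lamin libraries. Boxes show quartiles and the median and whiskers the 10th to 90th percentile: in all 4 pairs the lower quartile is higher in KO, and with 3A6 at 20 cycles the medians are 3.07% and 3.09% while the upper quartile drops from 6.81% to 4.42%.

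The most and least covered deserts of WT cells were also compared across the antibodies, as a description. The 4 WT lamin libraries are of cells under the same label and had Spearman correlations of 0.908 to 0.991 over deserts, so a choice by one antibody is also largely a choice by the other. Lower KO values among the highest deserts and higher ones among the lowest are thus favoured by the choice, and nothing is read from their direction. The 54 deserts with the most WT coverage by E1 had 3A6 coverage of 5.19% in WT and 2.00% in the KO list at 16 cycles, and of 12.8% and 5.52% at 20 cycles. The 54 deserts highest by WT 3A6 had E1 coverage of 3.34% and 3.85% at 16 cycles and of 10.9% and 10.7% at 20 cycles. The 3A6 values were well apart between the genotypes and the E1 values close, but they were read in differently chosen deserts. The 3A6 pair at 16 cycles also holds the KO library that stood apart. The contrast between the antibodies was not tested.

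The 54 deserts lowest by WT E1 had 3A6 coverage of 0.0706% in WT and 1.80% in the KO list at 16 cycles, and of 0.0975% and 1.83% at 20 cycles. The 54 lowest by WT 3A6 had E1 coverage of 0.0155% and 0.684% at 16 cycles, and of 0.0112% and 1.24% at 20 cycles. At WT values this near 0 a lower KO value was hardly possible. Chromosome 14 was the commonest among the lowest deserts and chromosome 8 among the highest, with either choice.

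**Figure D4:**
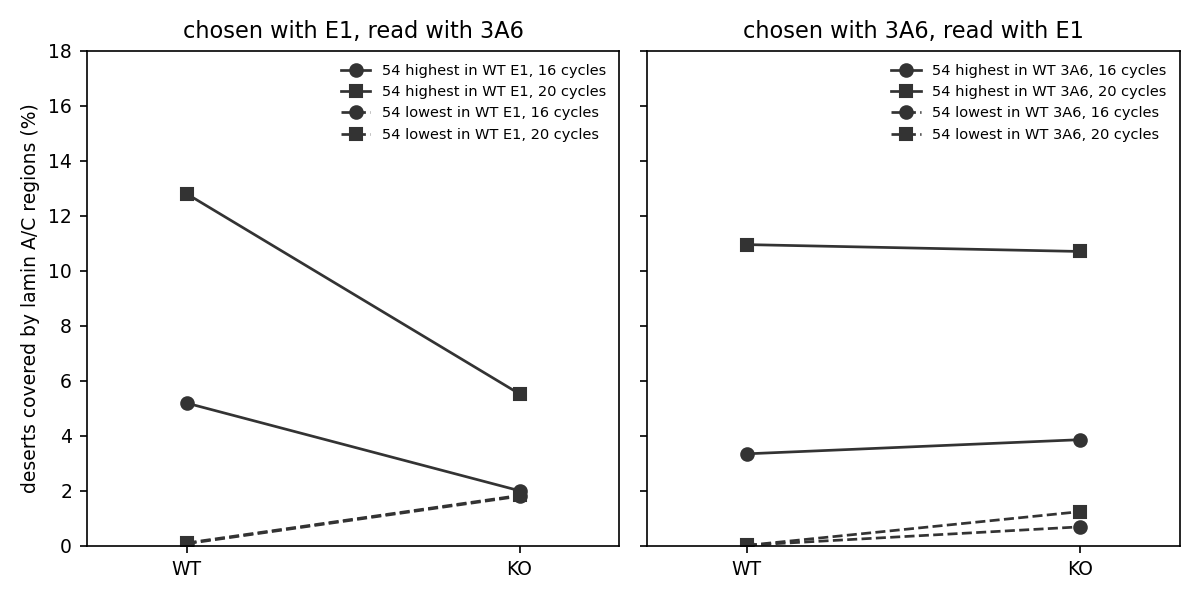
Percent of desert length covered by lamin A/C in WT and KO for the 54 deserts highest (solid) and lowest (dashed) by the WT libraries of one antibody, read with the other antibody at 16 cycles (circles) and 20 cycles (squares). The highest deserts go from 12.8% to 5.52% when read with 3A6 at 20 cycles and from 10.9% to 10.7% with E1, and the lowest deserts from 0.0975% to 1.83% and from 0.0112% to 1.24%.

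Counted desert by desert, 126 of 271 (46.5%) had more lamin A/C in KO in all 4 pairs, against 52.3% of all 2414 bins. Less in KO in all 4 pairs was seen for 22 deserts (8.12%), against 3.48% of all bins and 2.89% of gene-bearing bins. The share with more was thus near that of all bins and the share with less was above it. With the 3A6 pair at 16 cycles left out, 9.59% of deserts were lower and 48.0% higher, against 4.64% and 53.4% of all bins. Without the E1 pair at 16 cycles 13.3% of deserts and 5.88% of all bins were lower. A difference of at least 2-fold in all 4 pairs, with 0.1 percentage points added to each value, was seen for 64 deserts (23.6%) with more, against 28.3% of all bins, and for 3 with less (1.11%), against 0.456%. Over the pairs other than 3A6 at 16 cycles these counts were 66 (24.4%) and 6 (2.21%), against 29.4% and 0.994% of all bins.

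The differences were laid out by chromosome. The 22 deserts with less lamin A/C in KO fell mostly on chromosomes 3 (8 deserts) and 8 (7 deserts); chromosomes 5 and 19 had 2 each, and 1, 2 and 6 had 1 each. Summed over a chromosome, deserts were higher in KO in all 4 pairs on 5 autosomes (10, 11, 12, 14 and 18), lower in all 4 on chromosome 19, and mixed on the other 13. The ratio of deserts to gene-bearing bins, taken within a chromosome, was lower in KO in all 4 pairs on 14 of 19 autosomes and higher in all 4 on chromosome 14. Over the 3 pairs without 3A6 at 16 cycles the desert counts were again 5, 1 and 13, and the ratio was lower on 14 autosomes and higher on 2, chromosomes 10 and 14.

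**Figure D5:**
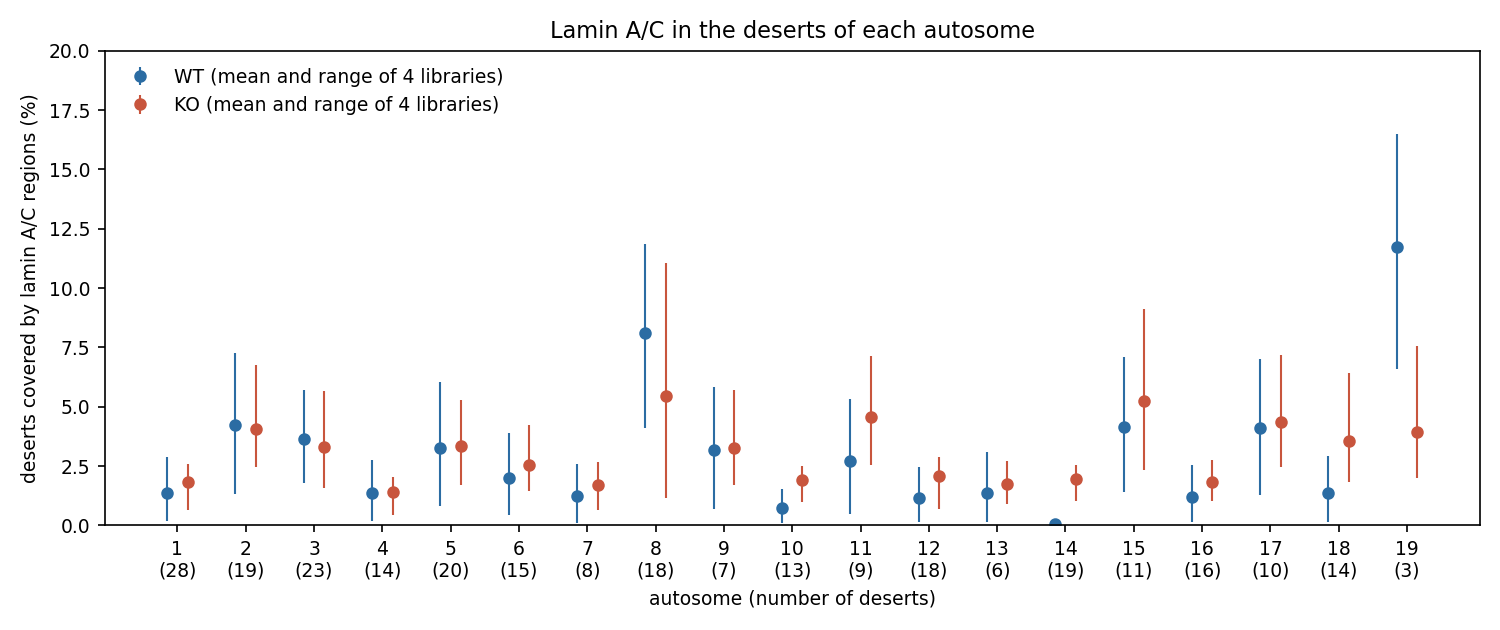
Percent of desert length covered by lamin A/C on each autosome, as the mean (points) and range (lines) of 4 libraries per genotype, with the number of deserts in brackets. WT means run from 0.0761% on chromosome 14 to 11.7% on chromosome 19, and KO means from 1.40% on chromosome 4 to 5.43% on chromosome 8.

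On chromosomes 19 and 18 the gene-bearing bins differed in the same direction as the deserts in all 4 pairs. The 3 deserts of chromosome 19 had 11.7% ± 4.98 in WT and 3.93% ± 2.63 in KO, and its gene-bearing bins 3.02% ± 1.61 and 1.93% ± 0.776. The 18 deserts of chromosome 8 had 8.09% ± 3.76 and 5.43% ± 4.13: with 3A6 they were at 5.72% and 1.159% at 16 cycles and at 11.9% and 5.12% at 20 cycles, but with E1 at 4.10% and 4.40%, then 10.7% and 11.1%. Gene-bearing bins of chromosome 8 had 3.15% ± 1.79 in WT and 2.84% ± 2.16 in KO. In both classes of this chromosome KO minus WT was smaller than its SD over pairs, -2.66 ± 3.56 points in deserts and -0.303 ± 1.70 in gene-bearing bins. Lap2alpha coverage was highest in the deserts of the same chromosomes, at 2.42% on 19 and 2.01% on 8 where all deserts averaged 0.731%. On chromosome 18, 14 deserts were at 1.36% ± 1.22 in WT and 3.56% ± 2.08 in KO, and gene-bearing bins at 0.563% ± 0.513 and 2.33% ± 1.02.

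On chromosome 14, WT lamin A/C was nearly absent from 1 long stretch, chr14:71000001-117000000. Its 17 deserts had 0.0354% and 0.130% with 3A6, none and 0.0178% with E1 in WT at 16 and 20 cycles, and 1.80%, 2.50%, 1.02% and 2.41% in KO. All 17 were higher in KO in all 4 pairs, against 46.5% of all deserts and 52.3% of all bins. The stretch was picked out for its low WT values, where a lower KO value was hardly possible. Nothing is therefore read from this count or from that of its gene-bearing bins. The 29 gene-bearing bins between them had 0.0308% ± 0.0348 in WT and 1.52% ± 0.566 in KO, and 26 were higher in all 4 pairs; without 3A6 at 16 cycles these counts were also 17 and 26. BRG1 covered 0.961% and 1.69% of those gene-bearing bins in WT and 2.23% and 2.43% in KO, and Lap2alpha 0.0263% and 0.161% of the deserts. Deserts and gene-bearing bins of the stretch differed together, and the part of the stretch in the differences of deserts was not tested. Input libraries were not used here, so whether DNA copy number in these cells differs in this stretch, or on chromosomes 8 and 19, was not tested. Without chromosomes 8, 14 and 19 the log2 ratio of deserts to gene-bearing bins was still -0.56, and 5.63% of 231 deserts were lower in KO in all 4 pairs, against 2.47% of all bins on the other chromosomes.

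The desert with the most WT lamin A/C was chr2:171000001-172000000, between Dok5, an adaptor of receptor tyrosine kinases, and Cbln4, a secreted synapse organiser, with 8.63%, 27.8%, 4.92% and 25.1% in WT (3A6 at 16 and 20 cycles, then E1) and 3.16%, 9.26%, 5.74% and 20.1% in KO. Both 3A6 values and E1 at 20 cycles were lower in KO, while E1 at 16 cycles was higher. The desert chr2:159000001-160000000 (Dhx35, a putative RNA helicase, to Gm826) and chr5:133000001-134000000 (Auts2, a neurodevelopmental gene, to Castor2, an arginine sensor) had WT means of 12.8% and 12.3%. Both had less 3A6 coverage in KO at either sonication length and more E1 coverage at 16 cycles. The other 7 of the 10 highest lay on chromosomes 19 and 8 and were lower in KO in every pair, against 8.12% of all deserts and 3.48% of all bins. A choice by high WT coverage favours lower KO values, so nothing is read from this direction.

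The largest differences towards less lamin A/C stood on both sides of Sorcs1, a neuronal sorting receptor gene of chromosome 19. The desert chr19:51000001-52000000, between Sorcs1 and the insulin gene Ins1, had 10.1%, 20.3%, 7.89% and 19.8% in WT and 1.55%, 3.37%, 2.12% and 5.89% in KO. On the other side, chr19:49000001-50000000, between Sorcs3 and Sorcs1, had 10.7%, 22.2%, 9.32% and 20.4% in WT and 1.92%, 4.27%, 2.17% and 9.83% in KO. In the first of these every WT value lay above every KO value, and in the second only the KO value with E1 at 20 cycles reached into the WT range. Both were named for the size of this difference, so such a separation is favoured by the choice. The third desert of the chromosome, chr19:35000001-36000000 between the kinesin gene Kif20b and the serotonin receptor gene Htr7, had 4.35%, 6.90%, 2.52% and 6.21% in WT and 2.47%, 4.96%, 1.70% and 6.94% in KO.

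On chromosome 8 the deserts around the cadherin genes Cdh8 and Cdh11 stood together. Cdh8 encodes a neuronal type II cadherin, Cdh11 the main cadherin of mesenchymal cells such as fibroblasts, and Cdh5 the cadherin of endothelium. The desert between Cdh11 and Cdh5, chr8:103000001-104000000, had lamin A/C at 4.42%, 12.9%, 2.89% and 11.5% in WT and at 0.679%, 2.55%, 1.58% and 3.58% in KO. Its Lap2alpha coverage, 2.30% and 3.02%, was the highest of any desert as the mean of both libraries, though not at 16 cycles alone. BRG1 went the other way there, from 1.68% and 4.57% in WT to 4.26% and 6.99% in KO, and CHD4 at 16 cycles from 1.00% to 2.78%. At 20 cycles, where the KO list of CHD4 is very short, CHD4 was at 2.098% and 0.107%. The deserts between Cdh8 and Cdh11, chr8:100000001-101000000 and chr8:101000001-102000000, were lower in all 4 pairs with means of 12.5% and 12.9% in WT and 6.81% and 7.83% in KO, and BRG1 stayed at or under 0.446% in each library there. With E1 the second of these was at 6.42% and 17.2% in WT and 6.10% and 16.6% in KO, so its difference lay mainly in 3A6.

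The other 5 of the 10 largest differences towards less were 3 deserts of chromosome 3 and 2 of chromosome 8. At chr3:23000001-24000000, between Tbl1xr1, a subunit of NCoR corepressors, and Naaladl2, lamin A/C was at 6.99%, 14.6%, 5.61% and 12.8% in WT, then 1.47%, 3.68%, 2.44% and 7.06% in KO. At chr3:11000001-12000000 (Snx16, a sorting nexin, to Ralyl) the means were 7.34% and 2.70%, and at chr3:42000001-43000000 (D3Ertd751e to the protocadherin gene Pcdh10) 9.40% and 4.99%. At chr8:76000001-77000000, between Iqcm and the mineralocorticoid receptor gene Nr3c2, they were 13.5% and 8.15%, and at chr8:97000001-98000000 (Got2, the mitochondrial aspartate aminotransferase, to Cdh8) 11.8% and 6.55%. In all 5 the 3A6 difference was larger than that of E1 at the same sonication length.

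The 10 deserts with the largest differences towards more lamin A/C in KO had WT means of 0.112% to 2.35%, against 1.41% for the median desert. The largest difference was at chr11:92000001-93000000, between the kinesin gene Kif2b and Car10, a carbonic anhydrase-related gene: 2.15%, 3.77%, 0.789% and 2.70% in WT and 2.52%, 7.29%, 5.39% and 12.4% in KO. Next came chr15:24000001-25000000, between Cdh18, a neuronal cadherin, and Basp1, a protein of growing nerve endings, with 0.891%, 1.73%, 0.141% and 0.945% in WT, then 2.41%, 5.42%, 4.04% and 8.67% in KO. At both sites BRG1 was lower in KO, 1.28% and 3.00% against 0.646% and 1.31% at the first and 2.29% and 4.52% against 0.730% and 1.08% at the second.

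The remaining 8 were spread over chromosomes 2, 3, 14 and 18. At chr18:87000001-88000000, between Cbln2, a synapse organiser, and the cytokine signalling suppressor Socs6, values were 0.227%, 0.319%, 0.0636% and 0.163% in WT and 1.42%, 3.73%, 3.57% and 8.06% in KO. Every KO value there lay above every WT value, which is favoured by the choice of deserts with the largest differences. At chr18:83000001-84000000, next to the homeobox gene Tshz1, the means were 1.84% and 5.83%. Both deserts of chromosome 2, chr2:40000001-41000000 and chr2:42000001-43000000, lie along Lrp1b, a very long gene of the LDL receptor family, and had 1.02% and 1.78% in WT, then 4.76% and 4.96% in KO. Another 3 were chr3:111000001-112000000 and chr3:112000001-113000000, between the arginine methyltransferase gene Prmt6 and the amylase gene Amy2b, and chr14:114000001-115000000, between Slitrk5, a neuronal membrane protein, and the glypican gene Gpc5.

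Lap2alpha in WT cells did not prefer deserts, but deserts with more of it also tended to have more WT lamin A/C. Its regions covered 0.614% and 0.848% of deserts and 0.560% and 0.963% of gene-bearing bins at 16 and 20 cycles, ratios of 1.10 and 0.881. Over the 271 deserts the WT mean of lamin A/C and that of Lap2alpha had a Spearman correlation of 0.69, and the difference of lamin A/C, KO minus WT, one of -0.49. Both are descriptions: the WT lists are of cells under the same label, and neighbouring deserts share a chromosome. WT lamin A/C is also the subtracted value in the difference, so a split by Lap2alpha is partly a split by WT lamin A/C. It favours higher KO values where Lap2alpha is low and lower ones where it is high. Nothing is read from the direction of this correlation or of the counts that follow. The 91 deserts with the least Lap2alpha had lamin A/C at 0.731% ± 0.665 in WT and 1.96% ± 0.735 in KO, and 65 of them (71.4%) were higher in all 4 pairs, against 46.5% of all deserts and 52.3% of all bins. The 90 with the most had 5.71% ± 3.17 and 4.34% ± 2.65, with 12 (13.3%) higher and 22 (24.4%) lower in all 4 pairs, where 8.12% of all deserts and 3.48% of all bins were lower. All 22 deserts with less lamin A/C in every pair were thus among these 90. Over the pairs other than 3A6 at 16 cycles, 65 of the 91 were higher, and 16 of the 90 were higher and 25 lower, of 26 lower in all. The correlation of the difference was then -0.43. With 3A6 those 90 were at 3.79% and 1.87%, then 9.15% and 4.49%, and with E1 at 2.35% and 3.03%, then 7.54% and 7.98%, in WT and KO at 16 and 20 cycles.

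The 5 deserts with the most Lap2alpha, by the mean of both libraries, lay on chromosomes 3, 8 and 19. After the desert between Cdh11 and Cdh5 came chr3:21000001-22000000, between the angiotensin receptor gene Agtr1b and Tbl1xr1, at 3.21% and 2.06%. The desert beside Pcdh10 (chr3:42000001-43000000) had 3.18% and 2.08%, the one beside Kif20b on chromosome 19 had 2.74% and 2.38%, and chr3:4000001-5000000, between the nuclear receptor gene Hnf4g and the homeobox gene Zfhx4, had 3.00% and 2.00%. All but the chromosome 19 desert had less lamin A/C in KO in all 4 pairs. This held for 24.4% of the 90 deserts with the most Lap2alpha, 8.12% of all deserts and 3.48% of all bins. As above, a choice by high Lap2alpha is partly one by high WT lamin A/C, so nothing is read from this direction.

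BRG1 was sparse in deserts and sparser in KO relative to gene-bearing bins. In WT it covered 0.590% of deserts at 16 cycles and 1.31% at 20 cycles, against 1.88% and 4.32% of gene-bearing bins. In KO the values were 0.644% and 0.900% against 3.27% and 3.76%, so the ratio was 0.314 and 0.303 for WT, against 0.197 and 0.239 for KO. The desert level was higher in KO at 16 cycles and lower at 20 cycles. BRG1 was lower in KO in both pairs in 107 deserts (39.5%), against 14.9% of all bins, and higher in both in 38 (14.02%), against 23.2%. At 16 cycles alone 113 deserts were lower and 128 higher, while 86.4% of gene-bearing bins were higher. Many deserts were near 0 at 16 cycles: 51 in WT and 54 in KO had no BRG1 region, and the medians were 0.212% and 0.138%. Among the 20-cycle lists 222 deserts (81.9%) were lower, where 75.5% of all bins were.

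BRG1 was concentrated in few deserts. The 27 deserts with the most held 51.1% and 40.2% of desert BRG1 in WT and 54.0% and 52.9% in KO. Highest was chr15:62000001-63000000, between the growth regulator gene Myc and the gasdermin gene Gsdmc, with 8.65% and 14.9% in WT and 9.25% and 14.4% in KO. This desert also had CHD4 at 6.55% and 9.34% in WT, with 7.48% in the KO list at 16 cycles, and lamin A/C at no more than 0.163% in any WT and 1.07% in any KO library. The BRG1 values of the genotypes were close there at both sonication lengths, and CHD4 at 20 cycles, from the short KO list, was at 0.386% in KO.

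The next 4 by BRG1 were less alike between the genotypes. At chr14:9000001-10000000, between Cfap20dc and the fragile-site gene Fhit, BRG1 was at 5.80% and 8.70% in WT and 3.90% and 5.33% in KO, with lamin A/C higher in KO in all 4 pairs. At chr2:108000001-109000000, between the potassium channel gene Kcna4 and Mettl15, it was at 4.05% and 6.86%, then 3.71% and 4.61%. At chr16:86000001-87000000, between the aggrecanase gene Adamts5 and N6amt1, it was at 4.50% and 5.97% in WT, then 5.77% and 6.25% in KO. At chr18:8000001-9000000, between Wac and the Wnt receptor gene Fzd8, it was at 3.12% and 5.34%, then 4.87% and 6.83%, and no lamin A/C region was listed there in WT. BRG1 was thus lower in KO in both pairs at the first and second of these and higher at the others.

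For CHD4 the KO list at 20 cycles was very short, so counts over both pairs rest on it. At 16 cycles CHD4 covered 0.342% of deserts in WT and 0.350% in KO, while gene-bearing bins went from 1.01% to 2.36%, so that the ratio was 0.338 and 0.149. At 20 cycles deserts were at 0.427% and 0.0307% and gene-bearing bins at 2.43% and 0.102%, and the ratio went the other way, from 0.176 to 0.301. CHD4 was lower in KO in both pairs in 115 deserts (42.4%), against 16.2% of all bins, and higher in both in 13 (4.80%), against 1.12%.

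Deserts that lay in longer runs had less BRG1 but not less lamin A/C. Lamin A/C in WT was at 2.79% ± 1.83 in 123 lone deserts, 2.46% ± 1.62 in runs of 2 and 2.64% ± 1.45 in runs of 3 or 4, and in KO at 3.04% ± 1.46, 2.89% ± 1.28 and 2.97% ± 1.35. BRG1 over the same classes was at 1.23% ± 0.626, 0.855% ± 0.479 and 0.487% ± 0.303 in WT and 1.10% ± 0.234, 0.686% ± 0.176 and 0.183% ± 0.0705 for KO (SD, n = 2 libraries). The 61 deserts with a gene body reaching in (2.46% ± 1.64 in WT, 3.01% ± 1.48 in KO) and the 210 without (2.70% ± 1.70, 2.97% ± 1.35) differed by less than the spread over libraries. The 5 deserts with antigen receptor segments were at 1.85% ± 1.63 and 2.60% ± 1.74.

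The 6 runs of 4 deserts showed how far neighbouring deserts differ between chromosomes. The run chr14:89000001-93000000, between the protocadherin genes Pcdh20 and Pcdh9, had 0.0158% and 0.0715% with 3A6 and nothing with E1 in WT, and 1.58%, 2.03%, 0.776% and 1.79% in KO. The run chr8:49000001-53000000, along the teneurin gene Tenm3, had 5.57%, 10.1%, 3.85% and 8.72% in WT and 0.979%, 6.15%, 5.42% and 13.1% in KO, lower with 3A6 and higher with E1. The runs chr1:47000001-51000000 (Slc39a10 to Tmeff2) and chr1:112000001-116000000 (Dsel to Cntnap5a) stayed at or under 2.19% in all WT libraries. The last 2 were chr2:97000001-101000000 (Lrrc4c to Iftap) and chr18:26000001-30000000 (Celf4 to Pik3c3), which reached 9.63% and 3.73% in WT.

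Genes beside deserts were described by 4 lists. Over the 3 pairs without 3A6 at 16 cycles their counts differed only for the long neuronal genes. Beside those genes 45 deserts (52.3%) were then higher and 5 (5.81%) lower, against 48.0% and 9.59% of all deserts. Of 62 developmental regulators found, 11 lay beside or reached into 12 deserts, of which 6 had more lamin A/C in KO in all 4 pairs and 1, beside Zfhx4, had less, against 126 and 22 of all 271 deserts. Median lamin A/C of these 12 was 0.636% in WT and 1.71% in KO, below the medians of 1.41% and 2.41% over all deserts. Median BRG1 was 1.15% against 0.371%. Deserts beside Myc, Nr2f2, a nuclear receptor of mesenchyme, Sall3 and Dach1, regulators of limb and organ development, had WT lamin A/C at 0.177% or less. That of Dach1 lies in the chromosome 14 stretch. These were the low end of the list: the deserts beside Pou3f2, Bcl11a and Zfhx4 were at 2.20%, 2.79% and 4.46% in WT.

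Cadherin and protocadherin genes bordered many deserts. Of 21 such genes, 15 adjoined 37 deserts, of which 19 (51.4%) had more and 7 (18.9%) less lamin A/C in KO in all 4 pairs, against 46.5% and 8.12% of all deserts. The 7 lay beside Cdh8, Cdh11 and Pcdh10 on chromosomes 8 and 3. The deserts beside Pcdh7, Pcdh9, Pcdh17 and Pcdh20, 5, 5, 4 and 4 of them with some shared, all had more in every pair, and the last 3 genes lie in the chromosome 14 stretch. The 5 deserts along Pcdh7 on chromosome 5 were at 0.999% in WT and 2.48% in KO. Deserts beside Cdh6 and Cdh9 on chromosome 15 were high in both genotypes, at 6.24% and 6.21% and at 5.71% and 5.82%. The 2 deserts of Cdh6 are among the 3 of Cdh9, so these are largely the same values.

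Long genes of neuronal adhesion and synapses adjoined the most deserts. Of 65 found, 40 bordered or reached into 86 deserts, of which 43 had more and 4 (4.65%) less in all 4 pairs, where 8.12% of all deserts had less. Their median lamin A/C, 1.41% in WT and 2.64% in KO, was also near that of all deserts. Within the list the deserts at Cntnap2, a neurexin-related gene, stood at 0.0569% and 2.53% and those at Sorcs1 at 15.1% and 3.89%. Of 25 fibroblast regulator and matrix genes, 3 adjoined 7 deserts: beside Cdh11 the 3 deserts were at 11.1% in WT and 5.58% in KO, beside Zeb2, a regulator of mesenchymal state, 2 were at 0.0596% and 2.105%, and beside Cdh2, the N-cadherin gene, 2 were at 1.14% and 3.61%.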

How the data were processed

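Region lists of 18 ChIP-seq libraries of WT and Lap2alpha KO mouse dermal fibroblasts were used, with groups from the sample titles and 1 library per group. Inputs were not used here. Each deposited list holds chromosome, start and end in base pairs, and the authors gave no height, score or significance. The submitters' processing notes name GRCm38 as the build and, as tools, MACS2 2.1.4, HOMER 4.11.1, bedtools, deepTools and SAMtools. What each tool did, with which threshold and control, is not given in the sources used here. More regions cover more sequence, so coverage is not an amount of protein.

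Intervals of width 0 (1 to 1201 per list) were dropped and intervals sharing at least 1 bp were merged; 7 lists held overlapping intervals and 11 did not. Bins of 1 Mb were classed by the midpoints of 20665 autosomal protein-coding genes of the RefSeq table. Percent covered is covered over total length of a class, and the last bin of a chromosome ends at the outermost listed position, so 2 deserts were short (the shortest 13073 bp). KO minus WT was taken per matched pair and given as mean ± SD over pairs. Correlations are over deserts and carry no p.

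Deserts were named by rule: the 10 highest in WT lamin A/C, the 10 largest mean differences each way among those differing one way in all 4 pairs, the 5 highest in BRG1 and in Lap2alpha, the longest runs, and listed genes beside deserts. Some deserts and genes that the rule names are not reported here. Members, lists and rule were chosen with earlier results of these data known. Interval steps were tested on simulated intervals. Python 3.11.15, numpy 2.4.6, pandas 2.3.3, scipy 1.17.1 and matplotlib 3.10.9 were used.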

Additional observations from a re-analysis of the deposited data

Results flagged for a closer look

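In 3 cases the desert difference between KO and WT had opposite signs at 16 and 20 cycles. With lamin antibody 3A6 it was 0.286 percentage points at 16 cycles and -1.23 at 20 cycles. BRG1 coverage of deserts differed by 0.0539 points at 16 cycles and -0.411 at 20 cycles. For CHD4 the difference was 0.00784 and -0.396, the latter with a KO list of 7012 autosomal regions. Each value is 1 library against 1 library, and the difference between sonication lengths was not tested.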

How the results depend on the processing

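Over all alternatives, 159 values lay within 1 SD over pairs or libraries of the reported one, or for a share of deserts within 1.5 times it, and 16 did not. With few pairs that SD is wide. Keeping only the 76 deserts with an interval in every list, beside all gene-bearing bins, gave ratios to gene-bearing bins of 3.16 (WT) and 1.85 (KO) for lamin A/C, 0.380 and 0.268 for BRG1 and 1.43 for Lap2alpha. With bins of 500 kb the lamin A/C ratio in WT was 2.61 and the BRG1 ratios 0.386 and 0.314. The WT BRG1 ratio, 0.309, was 0.301 when intervals up to 1 kb apart were merged and 0.278 without regions under 300 bp. The share of deserts lower in every pair, 8.12%, was 18.5% when both lists of a pair were cut to the same number of widest regions, 13.3% without the E1 pair at 16 cycles, 28.0% with 3A6 pairs only and 18.1% at 20 cycles only. The share higher in every pair, 46.5%, was 76.8% with E1 pairs only and 32.5% at its lowest. Where pairs are left out, fewer pairs must go one way, so both shares can then only stay or rise. For a single antibody or sonication length the shares of all bins were not taken. The log2 ratio of -0.57 was -1.74 with medians over bins and ranged to -0.35, always negative. The mean KO minus WT difference of desert lamin A/C, 0.33 points, ranged from -0.50 to 1.13 and was negative in 4 of 21 alternatives, so its sign is not fixed. The BRG1 difference ranged from -0.22 to -0.06 and that of CHD4 from -0.24 to -0.06, each over 9 alternatives that all kept both pairs. At 16 cycles alone they were 0.0539 and 0.00784 points, so their signs are not fixed either. The settings that leave out 3A6 at 16 cycles from counts within classes, lists and chromosomes, that leave out chromosomes 8, 14 and 19 or antigen receptor segments, and that weight autosomes equally, were chosen after seeing the data. The cause of each move was not tested.

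Leaving out a pair in turn gave -0.01 to 0.850 points, log2 ratios of -0.65 to -0.42, 8.12% to 13.3% of deserts lower and 46.9% to 61.3% higher. With a pair left out these shares can only stay or rise against those over all pairs. No paired analysis was possible because each group had 1 library, so no replicate block could be fitted; the pairs match in antibody and cycles only. Depth is unknown, lists lack scores, and lists of different length cannot be put on one scale.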

Other observations

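Chromosome X was outside the autosomal rule, and its 17 deserts are given as values. Lamin A/C covered them at 3.69%, 5.09%, 2.69% and 4.26% in WT (3A6 at 16 and 20 cycles, then E1) and at 1.48%, 3.13%, 2.05% and 4.74% in KO. The ratio to the 151 gene-bearing bins was 2.23, 2.45, 2.41 and 2.66 in WT and 1.66, 1.73, 1.81 and 1.90 in KO, lower in KO in all 4 pairs. The desert level was lower in KO in the first 3 pairs and higher with E1 at 20 cycles.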
